A study of Mus musculus with 24 samples.

Results

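The heat shock chaperone genes described here are 9 genes measured in lungs of male C57BL/6 mice. The 9 were taken by symbol (Hspa1a, Hspa1b, Hspa8, Hsph1, Dnajb1, Hsp90aa1, Hspb1, Hspd1 and Hspe1), out of 78275 genes counted, and all 9 were among the 17490 genes that passed the filter on low counts. Poly(A) RNA of 24 lungs was sequenced, in 8 groups of 3, and every mouse was 20 weeks old per the labels. C mice were healthy and untreated, and RIC mice were healthy but had remote ischemic conditioning, in which blood flow to the left leg was stopped and restored in 3 cycles (5 min each way), 3 days a week for 4 weeks. DE mice inhaled diesel engine exhaust for 30 min a day, 5 days a week, over about 8 weeks, a model of pulmonary fibrosis. RIC+DE mice were conditioned ahead of that exposure (preconditioning) and DE+RIC mice while it ran (perconditioning). DE+PFD mice were exposed and took the antifibrotic drug pirfenidone orally, 300 mg/kg a day on 6 days a week in 0.5% carboxymethylcellulose. The last 2 groups combined the drug with the earlier (RIC+DE+PFD) or the later conditioning (DE+PFD+RIC). No group is labelled as having the drug's carrier alone, clean air in the exposure chamber or a leg procedure without ischemia. Nothing in the labels says whether the 3 lungs of a group came from separate experiments, so p-values measure only the spread between these libraries.

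Chaperones bind proteins that are unfolded or newly made and keep them from clumping until they fold. HSP70 proteins do this in cycles of ATP use: J-domain proteins such as Dnajb1 bring the client and start ATP hydrolysis, and HSP110 proteins such as Hsph1 exchange the nucleotide so that the client is released. HSP90 takes over late-folding clients such as kinases and steroid receptors, small heat shock proteins such as Hspb1 hold unfolding proteins without ATP, and the HSP60 and HSP10 ring (Hspd1 and Hspe1) folds proteins inside mitochondria. In a heat shock response the factor HSF1 binds inverted repeats of the bases GAA in the promoters of many of these genes and their mRNA rises within minutes to hours. Hspa8 and, more weakly, the mitochondrial pair are also made in unstressed cells, whereas Hspa1a and Hspa1b are the strongly inducible HSP70 genes.

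The promoters of Hspa1a and Hspa1b are shown because the counts of these 2 genes moved together and their sequences are close to identical. Of the 9 genes, 7 had an entry in the RefSeq table of promoters (build GRCm38.p6), which holds 250 bases before and 50 after each listed gene start, and Hspa8 and Hsp90aa1 had none. The 300-base windows of Hspa1a and Hspa1b, both on the minus strand of chromosome 17, were identical at 296 bases. Counted from 1 at the 5′ end of the window, the differences from Hspa1a to Hspa1b were C44T, T47C, T249G and C276T. The 180 bases before each start are printed 5′ to 3′, at chr17:34972157-34972336 for Hspa1a and chr17:34959239-34959418 for Hspa1b. The capitals mark GAANNTTC, 2 inverted GAA units:
Hspa1a: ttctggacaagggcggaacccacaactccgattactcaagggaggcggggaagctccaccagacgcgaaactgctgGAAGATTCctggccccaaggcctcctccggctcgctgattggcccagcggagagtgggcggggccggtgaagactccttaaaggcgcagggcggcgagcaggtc
Hspa1b: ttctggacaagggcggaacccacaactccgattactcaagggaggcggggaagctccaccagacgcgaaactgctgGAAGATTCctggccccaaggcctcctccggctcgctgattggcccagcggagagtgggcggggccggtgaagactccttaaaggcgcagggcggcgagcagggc
The match starts at -104 from the gene start in both, and of the 4 differences only T249G lies in the printed stretch.

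The same motif, searched on both strands together with its mirror form TTCNNGAA, stood in the windows of 6 of the 7 genes with an entry, all but Dnajb1, against 15.1% of all 32851 promoter windows of that length. The 2 forms overlap where 3 units follow each other (GAANNTTCNNGAA or TTCNNGAANNTTC), which was so in Hspd1, Hspe1 and Hsph1 against 0.603% of all windows. Hspd1 and Hspe1 lie head to head on chromosome 1 and share 1 such stretch, read from opposite strands. The 30-base windows around a match are shown for Hspd1 (chr1:55088050-55088079, minus strand), Hspe1 (chr1:55088056-55088085, plus), Hspb1 (chr5:135887811-135887840, plus) and Hsph1 (chr5:149636351-149636380, minus), with the match in capitals:
Hspd1: gccttccgGAAGGTTCTAGAAcggaccgtg
Hspe1: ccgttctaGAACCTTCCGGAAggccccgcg
Hspb1: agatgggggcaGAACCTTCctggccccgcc
Hsph1: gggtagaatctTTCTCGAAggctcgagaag
These matches start at -139 in Hspd1, -84 in Hspe1 and -97 in Hspb1, and at -33 or -54 in Hsph1, which has 2 listed starts. In the RefSeq gene positions of this build, Hspd1 reaches to chr1:55088243 and Hsph1 to chr5:149636498, both on the minus strand. The matches shown for these genes thus lie within the annotated gene, upstream of the start listed with the promoter. A match describes the letters of the window and was not tested as a site of binding.

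Total counts per library ran from 3906807 to 18494156. The labels date 9 libraries to March, 14 to October and 1 to November without saying what was done then; the 3 RIC+DE libraries are all of March and the 3 DE libraries all of October. Of the markers of 14 cell types, none was at 0 in all libraries, and the 5 alveolar type 2 markers summed to between 11300 and 86100 CPM (counts scaled to library size). RIC+DE+PFD library 1 stood apart, with that highest sum and with ribosomal protein genes 2.06 log2 units above the mean of all libraries; the other 23 lay between -0.96 and 0.43. Markers of skeletal muscle summed to 2450 and 1230 CPM in RIC+DE libraries 1 and 3 and to 8.12 to 47.9 in the other 22. Values of the 9 genes below are CPM after TMM scaling, which corrects for libraries dominated by a few genes.

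Per kilobase of exon, the constitutive HSP70 gene Hspa8 was the most abundant of the 9, with a median of 631 CPM per kb over the 24 libraries. Hsp90aa1, the inducible HSP90 of the cytosol, followed at 168 and Hspb1, a small heat shock protein, at 149. The mitochondrial chaperonin genes were at 87.2 for Hspe1 and 58.6 for Hspd1. Hsph1 was at 27.6, Dnajb1 at 27.4, Hspa1b at 24.5 and Hspa1a at 18.9 CPM per kb, so that the inducible HSP70 genes were the lowest. These levels carry an uncertainty that the count table does not resolve: 58.8% of the 50-base words of Hspa1a and 62.3% of those of Hspa1b are shared with the other, and 74.8% of the words of Hspa8, 58.5% of Hsp90aa1, 51.6% of Hspb1 and 44.8% each of Hspd1 and Hspe1 also occur in other genes. No source used here says how reads that fit several genes were counted. Hsph1 shares 0% of its words and Dnajb1 0.441%.

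The inducible HSP70 genes varied most between libraries. Hspa1a was at 21.3, 50.9 and 22.6 CPM in the 3 C libraries, at 35.2, 11.1 and 230.8 in RIC, and at 51.7, 19.0 and 287.2 in DE. It was at 61.1, 92.0 and 112.1 CPM in DE+PFD, at 31.7, 77.2 and 46.0 in RIC+DE and at 57.5, 61.2 and 56.6 in DE+RIC. In the groups with both treatments it was at 29.9, 398.6 and 50.6 CPM (RIC+DE+PFD) and at 483.9, 137.5 and 55.4 (DE+PFD+RIC). One library of RIC, DE, RIC+DE+PFD and DE+PFD+RIC was thus far above the others of its group, while DE+RIC, DE+PFD, RIC+DE and C held no library above 112.1 CPM. Hspa1b followed it, from 9.21 CPM in RIC library 2 to 725 in DE+PFD+RIC library 1, a ratio of 78.8 where that of Hspa1a was 43.6. The lowest of these values, 63 counts of Hspa1b out of 7041947 in RIC library 2, has an exact 95% binomial interval of 6.87 to 11.4 CPM before TMM scaling, which covers counting error only. In bulk lung RNA, fewer cells of a type and less RNA per cell cannot be told apart.

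**Figure D1:**
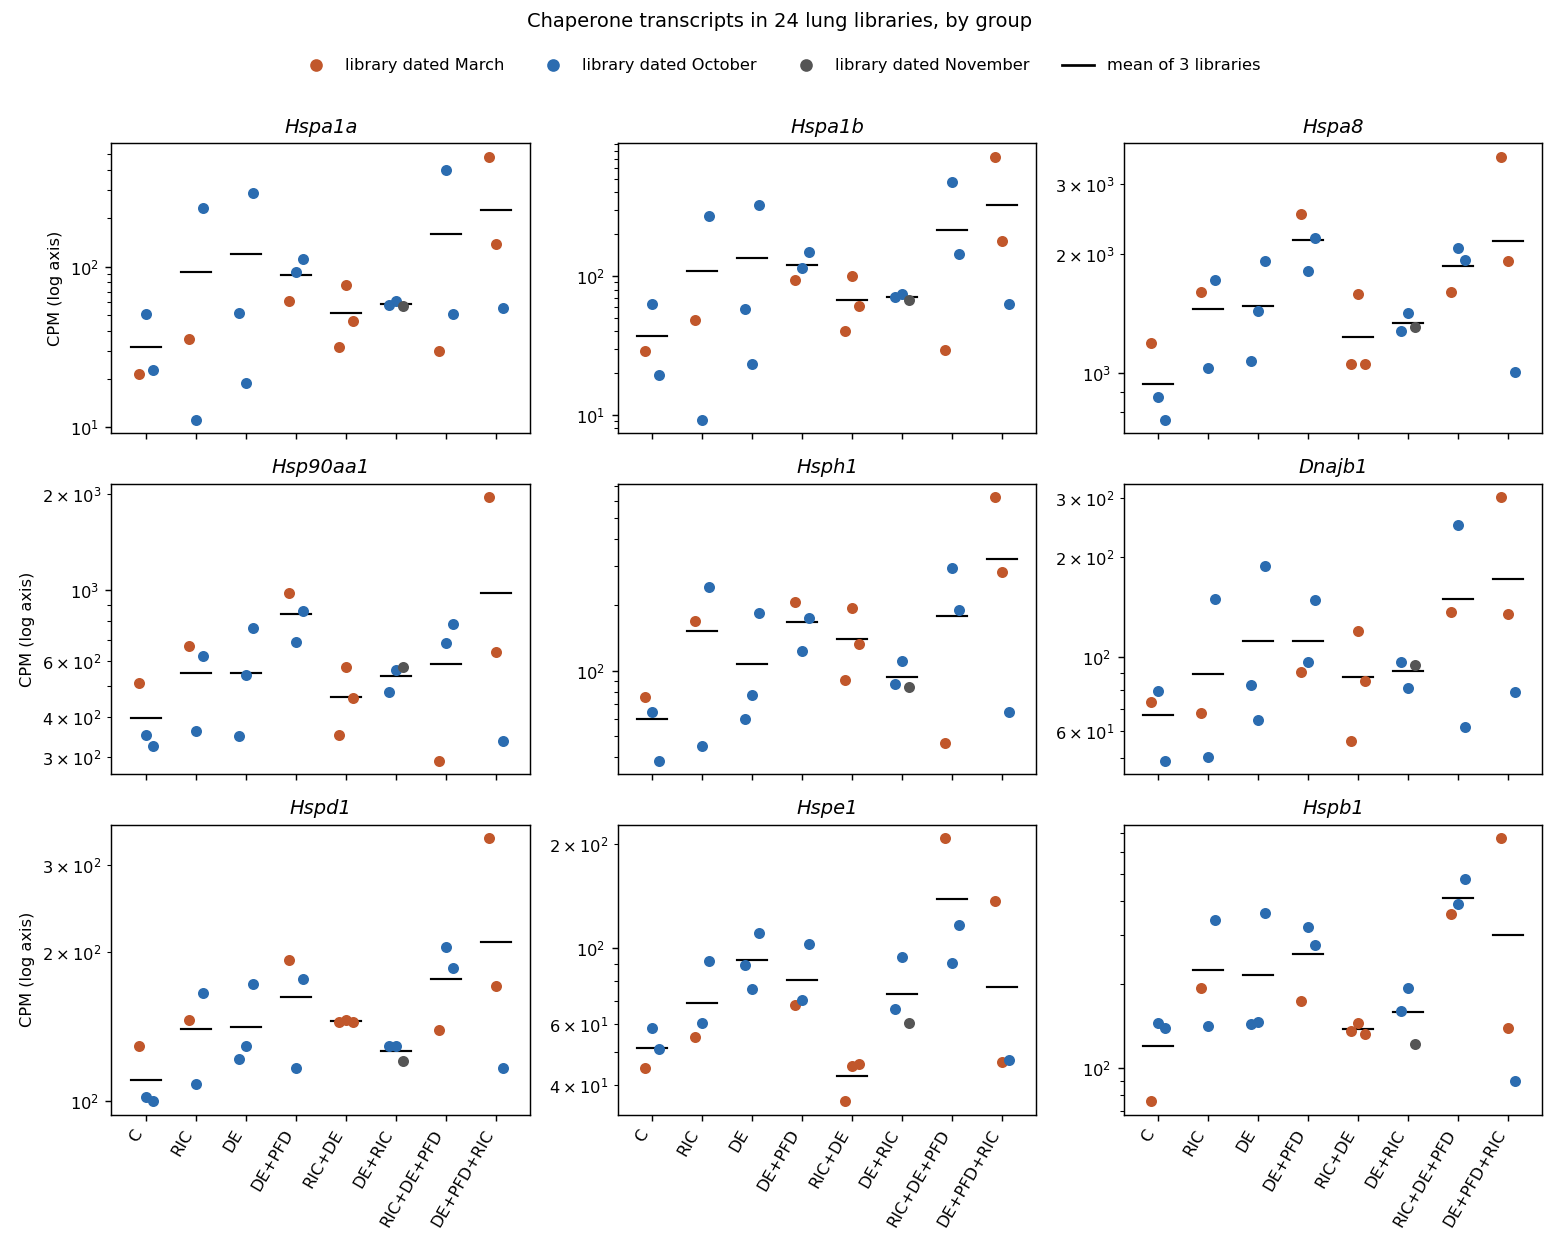
CPM of each chaperone gene (log axis) in the 24 libraries by group, with 1 point per library coloured by date and a bar at the mean of 3 libraries. Single libraries of RIC, DE, RIC+DE+PFD and DE+PFD+RIC stand high in Hspa1a and Hspa1b, whereas Hspd1 spans a ratio of 3.42 over all libraries.

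Among the partners of HSP70, Hsph1 spanned a ratio of 16.1 from the lowest to the highest library (38.6 CPM in C library 3 to 621.9 in DE+PFD+RIC library 1) and Dnajb1 one of 6.14. The ratio was 8.89 for Hspb1, 6.70 for Hsp90aa1, 5.82 for Hspe1, 4.61 for Hspa8 and 3.42 for Hspd1. DE+PFD+RIC library 1 was the highest library for 8 of the 9 genes; the exception was Hspe1, at 208.3 CPM in RIC+DE+PFD library 1 and 137.1 there. With group and date in the model, the biological coefficient of variation (the relative spread that remains between libraries) was 0.797 for Hspa1a and 0.814 for Hspa1b, each at percentile 99.3 of all genes tested, whose median was 0.232. It lay at percentile 96.9 for Hsph1, 93.3 for Hspb1, 92.8 for Dnajb1, 88.7 for Hsp90aa1, 75.1 for Hspe1, 66.3 for Hspa8 and 55.6 for Hspd1. Group accounted for 26.2% of the sum of squares of Hspa1a after date and for 57.3% of that of Hspa8, beside a median of 34.2% over all genes tested, and date for 0.345% and 5.99%.

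Ordered by the means of the groups, C was lowest for 8 of the 9 genes, and DE+PFD+RIC was highest for 6 and RIC+DE+PFD for 2. Hspa1a averaged 31.6 ± 16.7 CPM in C, 51.6 ± 23.3 in RIC+DE, 58.5 ± 2.43 in DE+RIC, 88.4 ± 25.7 in DE+PFD, 92.4 ± 120 in RIC, 119 ± 146 in DE, 160 ± 207 in RIC+DE+PFD and 226 ± 227 in DE+PFD+RIC (SD, n = 3). Hspa8 averaged 943 ± 224 CPM in C, 1230 ± 308 in RIC+DE, 1340 ± 72.8 in DE+RIC, 1450 ± 368 in RIC, 1480 ± 427 in DE, 1870 ± 239 in RIC+DE+PFD, 2150 ± 1270 in DE+PFD+RIC and 2170 ± 358 in DE+PFD (SD, n = 3). Hsp90aa1 went from 396 ± 102 CPM in C to 978 ± 860 in DE+PFD+RIC. Hspe1 differed from both: RIC+DE was lowest at 42.4 ± 5.72 CPM and RIC+DE+PFD highest at 138 ± 61.9 (SD, n = 3). Of the 63 pairs of groups next to each other in these orders, the libraries overlapped in 62, the exception being Hsph1 in C and DE+RIC, so the order of neighbours is not resolved.

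Exposure to diesel exhaust was set against healthy lungs first. All 9 chaperone genes lay above C in DE by their log2 fold change, where 49.9% of all genes tested did, and their median was 0.82 beside -0.00057 over all genes. The 9 genes moved together between libraries, with a median Pearson r of 0.74 over 36 pairs on residuals after group and date. Counts of genes above or below 0, here and in the comparisons that follow, are thus not counts of independent genes. Hspe1, the HSP10 lid of the mitochondrial chaperonin, was at 89.1, 76.1 and 110.7 CPM in DE and at 44.8, 58.4 and 50.8 in C, with no overlap, as 7.60% of all genes had in that direction; it was the only member of the 9 with none. Hspa8 was at 1074, 1434 and 1925 CPM in DE and at 1194, 871 and 763 in C, which overlap. The differences were log2 0.90 ± 0.37 (SE) for Hspe1 and 0.82 ± 0.33 for Hspa8, each with an unadjusted edgeR p of 0.024 and an adjusted one of 0.988, so that 0 of the 9 genes passed the threshold of 0.05 (0% of all genes passed). At an unadjusted edgeR p under 0.05 there were 2 of the 9 genes beside 3.33% of all genes, and DESeq2 also called 0 of the 9. The ribosomal protein level was higher in all DE libraries, at 0.325, 0.426 and 0.232 against -0.234, -0.015 and 0.0986 for C. Its part in the Hspe1 difference was not tested.

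The inducible HSP70 genes showed the largest and least certain differences of this comparison, log2 1.65 ± 1.16 (SE) for Hspa1a and 1.63 ± 1.19 for Hspa1b. They rested on DE library 3: without it both were at -0.09 and the median of the 9 genes was 0.30. Hsph1 differed by log2 0.99 ± 0.73, Hspb1 by 0.82 ± 0.55, Dnajb1 by 0.75 ± 0.55, Hsp90aa1 by 0.65 ± 0.48 and Hspd1 by 0.47 ± 0.29 (edgeR, SE). Hspb1 was at 143.5, 146.6 and 360.0 CPM in DE and 75.7, 144.9 and 139.4 in C. Within the October libraries alone all 9 genes again lay above C, with a median of 0.80. When no filter on low counts was applied, the same edgeR model gave a SE of 0.256 for Hspa1a in place of 1.16 and called 4 of the 9 genes (Hspa1a, Hspa1b, Hsph1 and Hspe1), so these calls depend on the filter.

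**Figure D2:**
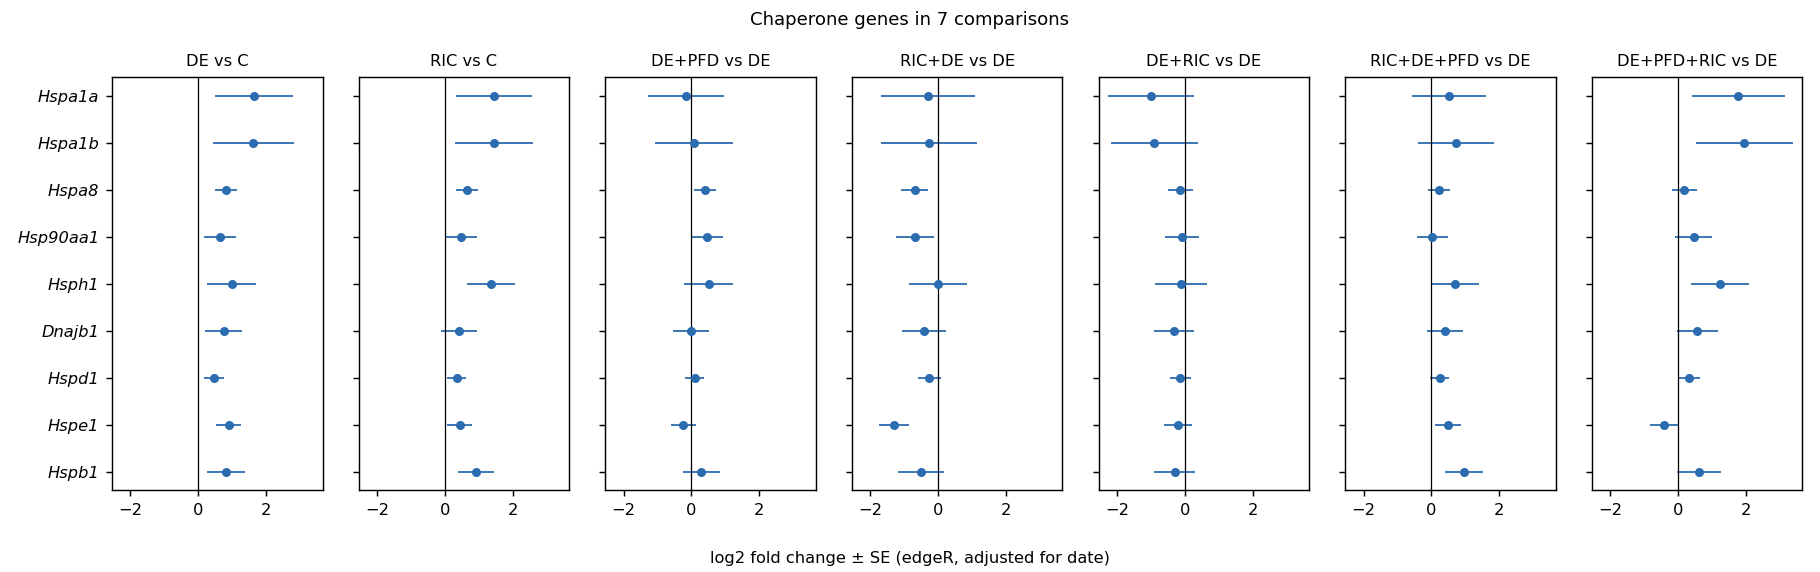
Log2 fold change ± SE of the 9 chaperone genes (rows) in 7 comparisons (panels), from the edgeR model with group and date. All 9 points lie above 0 in DE against C and in RIC against C, and the bars of Hspa1a and Hspa1b are the widest.

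Conditioning in healthy lungs gave a like picture with a smaller median. All 9 genes lay above C in RIC (49.0% of all genes did), with a median of log2 0.65 beside -0.0045 over all genes. The C libraries enter this comparison and the one above, so the 2 are not independent. Hsph1, the HSP110 that releases clients from HSP70, was at 169.2, 45.0 and 240.3 CPM in RIC and at 75.8, 64.9 and 38.6 in C. RIC library 3 was the highest and library 2 within the range of C, and the difference was log2 1.36 ± 0.70 (SE). Hspa8 differed by 0.65 ± 0.32, from 1608, 1034 and 1720 CPM. Of the 9 genes 0 passed in edgeR (adjusted p of 1 for each; 0% of all genes passed), 0 had an unadjusted p under 0.05 (1.19% of all genes) and DESeq2 called 0.

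In RIC the inducible genes again turned on 1 library. Hspa1a differed by log2 1.44 ± 1.12 and Hspa1b by 1.46 ± 1.15 (SE), and without RIC library 3 these were -0.36 and -0.43. Dnajb1, the J-domain partner of HSP70, was at 68.1, 50.3 and 148.9 CPM and moved from log2 0.41 ± 0.53 to -0.25 without that library. The median of the 9 genes was then 0.13. Hspb1 differed by 0.92 ± 0.54, Hsp90aa1 by 0.49 ± 0.46, Hspe1 by 0.44 ± 0.36 and Hspd1 by 0.36 ± 0.28, in edgeR, and none of the 9 genes had all 3 RIC libraries above C, where 2.24% of all genes did. With no filter on low counts the model called 3 of the 9 (Hspa1a, Hspa1b and Hsph1).

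With pirfenidone in exposed lungs, none of the 9 genes had all 3 libraries above DE (5.90% of all genes) or all below it (5.28%). Hsp90aa1 was at 982.3, 686.5 and 861.0 CPM in DE+PFD and at 349.3, 543.7 and 762.2 in DE, a difference of log2 0.46 ± 0.47 (SE). Hspa8, at 2523, 1809 and 2190 CPM, differed by 0.41 ± 0.33, and Hsph1 by 0.51 ± 0.72. The other 6 genes lay between -0.24 for Hspe1 and 0.29 for Hspb1, and 6 of the 9 were above 0 (49.1% of all genes), with a median of 0.09. Without DE library 3 the median was 0.75 with 8 above 0, and without DE library 1 it was -0.01 with 4. In edgeR 0 of the 9 passed (0% of all genes), 0 had an unadjusted p under 0.05 (2.81% of all genes) and DESeq2 called 0. The range of Hspa1a was 15.2-fold among the 3 DE libraries and 1.84-fold among the 3 DE+PFD libraries; whether the spreads differ was not tested.

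Preconditioned lungs had lower Hspe1 values than DE lungs, with no overlap between the groups. Hspe1 was at 35.8, 45.5 and 46.0 CPM in RIC+DE and at 89.1, 76.1 and 110.7 in DE, and the difference was log2 -1.31 ± 0.44 (SE), with an unadjusted edgeR p of 0.00741 and an adjusted one of 0.274. It was the 1 gene of the 9 at an unadjusted p under 0.05, where 17.2% of all genes were, and the 1 with all libraries below DE, where 20.6% were. In edgeR 0 of the 9 passed the threshold (0% of all genes), and DESeq2 called 0. The 9 genes all lay below DE (50.3% of all genes lay above), with a median of -0.42. Without DE library 3 the median was 0.06 with 5 above 0, and Hspe1 was at -1.17 ± 0.48; without DE+PFD+RIC library 3, which enters through the date term, the median was -0.09. The ribosomal protein level was lower in the preconditioned libraries, at -0.96, -0.636 and -0.555 against 0.325, 0.426 and 0.232 for DE. Summed markers of alveolar type 2, club and ciliated cells were also lower in all preconditioned libraries. Alveolar type 2 cells were at 11300, 21400 and 22000 CPM against 27700, 39000 and 36600. Club cells were at 19100 to 28900 against 34000 to 62400, and ciliated cells at 539 to 717 against 754 to 1100. Markers of neutrophils were lower too, at 49.3 to 82.0 CPM against 108 to 256. So were those of lymphoid cells, at 87.8 to 107 against 187 to 425, and of erythroid cells, at 1340 to 2960 against 3590 to 5120. The sums of the other cell types overlapped between the groups. Alveolar type 1 cells were at 1960, 4100 and 3130 CPM against 4020, 6320 and 5910. Fibroblasts were at 1290, 916 and 1480 against 934, 835 and 1140, and cardiac muscle at 3180, 1120 and 1440 against 1230, 784 and 872. The part of these measures in the Hspe1 result was not tested. The markers of skeletal muscle were high in RIC+DE libraries 1 and 3, where Hspb1, a gene also abundant in muscle, was at 135.6 and 132.2 CPM beside 145.1 in library 2. Since RIC+DE is all of March and DE all of October, the groups share no date: the fitted difference takes its date term from other groups, and with no such term Hspe1 was at -1.12 ± 0.35.

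With perconditioning, the ratio of the highest to the lowest of the 3 libraries ran from 1.07 for Hspd1 to 1.55 for Hspe1 and 1.59 for Hspb1. DE+RIC libraries held 1281, 1420 and 1312 CPM of Hspa8, 480, 562 and 575 of Hsp90aa1 and 129.3, 129.3 and 120.5 of Hspd1, the HSP60 ring. All 9 fold changes were below 0 (51.1% of all genes were above), from log2 -0.08 ± 0.51 (SE) for Hsp90aa1 to -1.0 ± 1.26 for Hspa1a, with a median of -0.20. Without DE library 3 the median was 0.26 and 8 of the 9 were above 0, so this direction is not settled. In edgeR 0 of the 9 passed (0% of all genes), 0 had an unadjusted p under 0.05 (3.21% of all genes) and DESeq2 called 0.

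With preconditioning and pirfenidone together, Hspb1 was the only one of the 9 genes with no overlap with DE+PFD. It was at 357.3, 389.3 and 479.2 CPM in RIC+DE+PFD, at 143.5, 146.6 and 360.0 in DE and at 173.9, 321.8 and 278.1 in DE+PFD, so that it lay above all DE+PFD libraries, as 5.88% of all genes did, and overlapped DE. The differences were log2 0.96 ± 0.55 (SE) from DE and 0.68 ± 0.54 from DE+PFD, with edgeR adjusted p of 0.553 and 0.508. Hspe1 overlapped DE+PFD and differed from it by log2 0.74 ± 0.36 (unadjusted edgeR p of 0.0554, adjusted 0.295). Against DE all 9 genes were above 0 (54.2% of all genes), with a median of 0.50, and against DE+PFD 7 were (51.4%), with a median of 0.42. In both, edgeR passed 0 of the 9 (0% of all genes), 0 had an unadjusted p under 0.05 (9.50% and 17.3% of all genes) and DESeq2 called 0. Without RIC+DE+PFD library 2, the library with 398.6 CPM of Hspa1a, the medians were 0.05 and -0.33.

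With perconditioning and pirfenidone together, 1 library carried the chaperone values. DE+PFD+RIC library 1 held 3518 CPM of Hspa8, 1955 of Hsp90aa1, 621.9 of Hsph1 and 672.7 of Hspb1; library 2 held 1922, 641.1, 283.1 and 139.4, and library 3 held 1011, 337.1, 64.4 and 90.0. The 3 libraries thus ran from the top of the series to the level of C. Hspa1a differed from DE by log2 1.78 ± 1.38 (SE) and from DE+PFD by 1.94 ± 1.24, and the medians of the 9 genes were 0.57 and 0.32, with 8 and 6 above 0 (48.9% and 49.7% of all genes). Without library 1 the medians were -0.08 and -0.20, and in the October libraries alone, where library 3 is the only one of its group, they were -0.74 and -0.99. In edgeR 0 of the 9 passed in either comparison (0% of all genes), 0 had an unadjusted p under 0.05 (9.15% and 4.21% of all genes) and DESeq2 called 0.

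The timing of conditioning was compared without and with the drug. Without the drug the groups share no date: RIC+DE is all of March and DE+RIC of October and November. Their differences in CPM cannot be told apart from date, and the fitted ones take their date term from other groups. Between DE+RIC and RIC+DE, Hspe1 was at 66.6, 93.8 and 60.7 CPM against 35.8, 45.5 and 46.0, higher in all libraries as 20.0% of all genes were, by log2 1.11 ± 0.47 (SE; unadjusted edgeR p of 0.0279, adjusted 0.358). Hspd1, whose promoter is shared with it, went the other way in CPM, with all 3 DE+RIC libraries (120.5 to 129.3) below the 3 RIC+DE libraries (144.6 to 145.5), as 18.8% of all genes had; its fold change with date in the model was 0.13 ± 0.37. Between DE+PFD+RIC and RIC+DE+PFD, Hspe1 was at 137.1, 46.8 and 47.2 CPM against 208.3, 90.2 and 116.8 and differed by log2 -0.90 ± 0.37 (unadjusted edgeR p of 0.0232, adjusted 0.121). Without RIC+DE+PFD library 1, the one with the high ribosomal protein level, that difference was -0.37 ± 0.44. Without RIC+DE+PFD library 2 it was -1.11 ± 0.38 with an adjusted edgeR p of 0.0399, beside 4210 genes called in that fit. The ribosomal protein level was 0.122, 0.382 and -0.133 in DE+RIC against -0.96, -0.636 and -0.555 in RIC+DE. With the drug it was 0.19, -0.873 and -0.308 in DE+PFD+RIC against 2.06, 0.0568 and 0.191 in RIC+DE+PFD. Its part in the Hspe1 differences was not tested. In each of these comparisons 6 of the 9 fold changes were above 0 (48.4% and 51.1% of all genes), with medians of 0.13 and 0.17. These directions are not settled: without DE+PFD+RIC library 1 the comparison with the drug had a median of -0.37 and 0 of the 9 above 0, and without RIC+DE+PFD library 1 one of -0.28 and 3. The comparison without the drug had a median of -0.20 and 3 above 0 without DE+PFD+RIC library 3. In each, edgeR called 0 of the 9 genes (0% of all genes), 1 had an unadjusted p under 0.05 (13.7% and 28.0% of all genes) and DESeq2 called 0.

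Whether the drug altered what preconditioning did was asked of each gene by the difference of differences, RIC+DE+PFD minus DE+PFD set against RIC+DE minus DE. RIC+DE and DE share no date, so that part takes its date term from other groups. All 9 values were above 0 (48.0% of all genes), with a median of log2 0.84. Without DE library 3 the median was 0.26 with 5 of the 9 above 0, without DE+PFD+RIC library 3 it was 0.27 with 7, without RIC+DE+PFD library 2 it was 0.31 with 6, and without RIC+DE+PFD library 1 it was 1.27 with all 9. Hspe1 had the largest, 2.05 ± 0.55 (SE), with an unadjusted edgeR p of 0.0013 and an adjusted one of 0.0742; Hspb1 followed at 1.18 ± 0.85. At an unadjusted p under 0.05 there was 1 of the 9, beside 27.2% of all genes, and 0 passed (0% of all genes), whereas DESeq2 called 1, Hspe1, with an adjusted p of 0.0257. The value for Hspe1 was smaller without RIC+DE+PFD library 1, at 1.38 ± 0.63 with an unadjusted p of 0.0433 and an adjusted one of 0.929, while without library 2, without library 3 or without RIC library 1 the adjusted p was 0.0186, 0.0295 and 0.0372. For perconditioning the same quantity was 0.04 ± 0.55 for Hspe1 and 2.94 ± 1.78 for Hspa1a, with a median of 0.61; 8 of the 9 were above 0 (51.1% of all genes), and none had an unadjusted p under 0.05 in edgeR (2.67% of all genes) or was called there (0% of all genes) or by DESeq2. This median turned on single libraries: without DE+PFD+RIC library 1 it was -0.06 with 4 of the 9 above 0, without DE library 3 it was 0.20, and without DE+PFD+RIC library 2 or 3 it was 0.92 and 1.36.

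A test for any difference among the 8 groups passed 0 of the 9 genes in edgeR (0% of all genes). Hspe1 had an unadjusted p of 0.00507 and Hspa8 one of 0.0165, both with an adjusted p of 0.282, where 14.3% of all genes had an unadjusted p under 0.05. DESeq2 called both, with adjusted p of 0.0107 for Hspe1 and 0.0234 for Hspa8, beside 1073 genes called in all. Without RIC+DE+PFD library 1 the unadjusted edgeR p of Hspe1 was 0.132. Between the March and October dates 0 of the 9 genes passed in edgeR (0.00572% of all genes, 1 gene), 0 had an unadjusted p under 0.05 (14.8% of all genes) and DESeq2 called 0. The date differences ran from log2 -0.91 ± 0.91 (SE) for Hspa1a to 0.43 ± 0.23 for Hspa8, March minus October, and 6 of the 9 were above 0 (53.2% of all genes), with a median of 0.20 that was -0.08 without DE+PFD+RIC library 3.

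What the 9 genes had in common was that they moved together from library to library. Over the 24 libraries, r of log2 CPM was above 0 for all 36 pairs, with a median of 0.73, and for 32 pairs the permutation p adjusted over the 36 pairs was under 0.05 (33 by Spearman's rho). What share of pairs of other genes would pass was not computed. Hspa1a and Hspa1b had r = 0.976 and rho = 0.954 (permutation p of 1e-05 for each, the smallest that 100000 resamples can give; adjusted 2.77e-05 and 4.5e-05), and reads of these near-identical copies cannot be told apart with certainty. Hspa1a with Dnajb1, its J-domain partner, had r = 0.898 and rho = 0.844 (permutation p of 1e-05 and 2e-05, adjusted 2.77e-05 and 6e-05). Hspa8 with Hsp90aa1 had r = 0.895 and rho = 0.892, and Hsph1 with Hspd1 r = 0.887 and rho = 0.881 (permutation p of 1e-05 for each of the 4, adjusted 2.77e-05 for r and 4.5e-05 for rho). The libraries of a group share treatment and date, so the same values were taken from residuals after group and date, where the median r was 0.74, within the 9 March libraries, where it was 0.78 with 35 pairs above 0, and within the 14 October libraries, where it was 0.81 with all 36 above 0.

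Over all 24 libraries the mitochondrial lid Hspe1 was the loosest of the 9. With Hsph1 it had r = 0.218 and rho = 0.233 (permutation p of 0.307 and 0.273, the same adjusted), with Hsp90aa1 r = 0.337, with Hspa1a 0.380 and with Hspa1b 0.381, and these 4 were the pairs not past the threshold by r. Its closest partner was Hspb1, at r = 0.800 and rho = 0.835 (permutation p of 1e-05 for each, adjusted 2.77e-05 and 4.5e-05), whereas with Hspd1, the ring it caps and the gene next to it, r was 0.447 and rho 0.414 (permutation p of 0.0291 and 0.0449, adjusted 0.0327 and 0.0490). Within October r of Hspe1 and Hspd1 was 0.818 and within March 0.443. The 4 loosest pairs of Hspe1 were also closer within October than within March. With Hsph1 r was 0.767 and -2.4e-05, with Hsp90aa1 0.814 and 0.193, with Hspa1a 0.540 and 0.293, and with Hspa1b 0.640 and 0.228. With the 2 libraries farthest from the median of the first gene of each pair left out, the median r was 0.59 over the 36 pairs. It was then 0.964 for Hspa1a with Hspa1b, 0.828 for Hspa1a with Dnajb1, 0.845 for Hspa8 with Hsp90aa1, 0.832 for Hsph1 with Hspd1, 0.780 for Hspe1 with Hspb1, 0.291 for Hspe1 with Hspd1 and -0.000858 for Hsph1 with Hspe1.

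**Figure D3:**
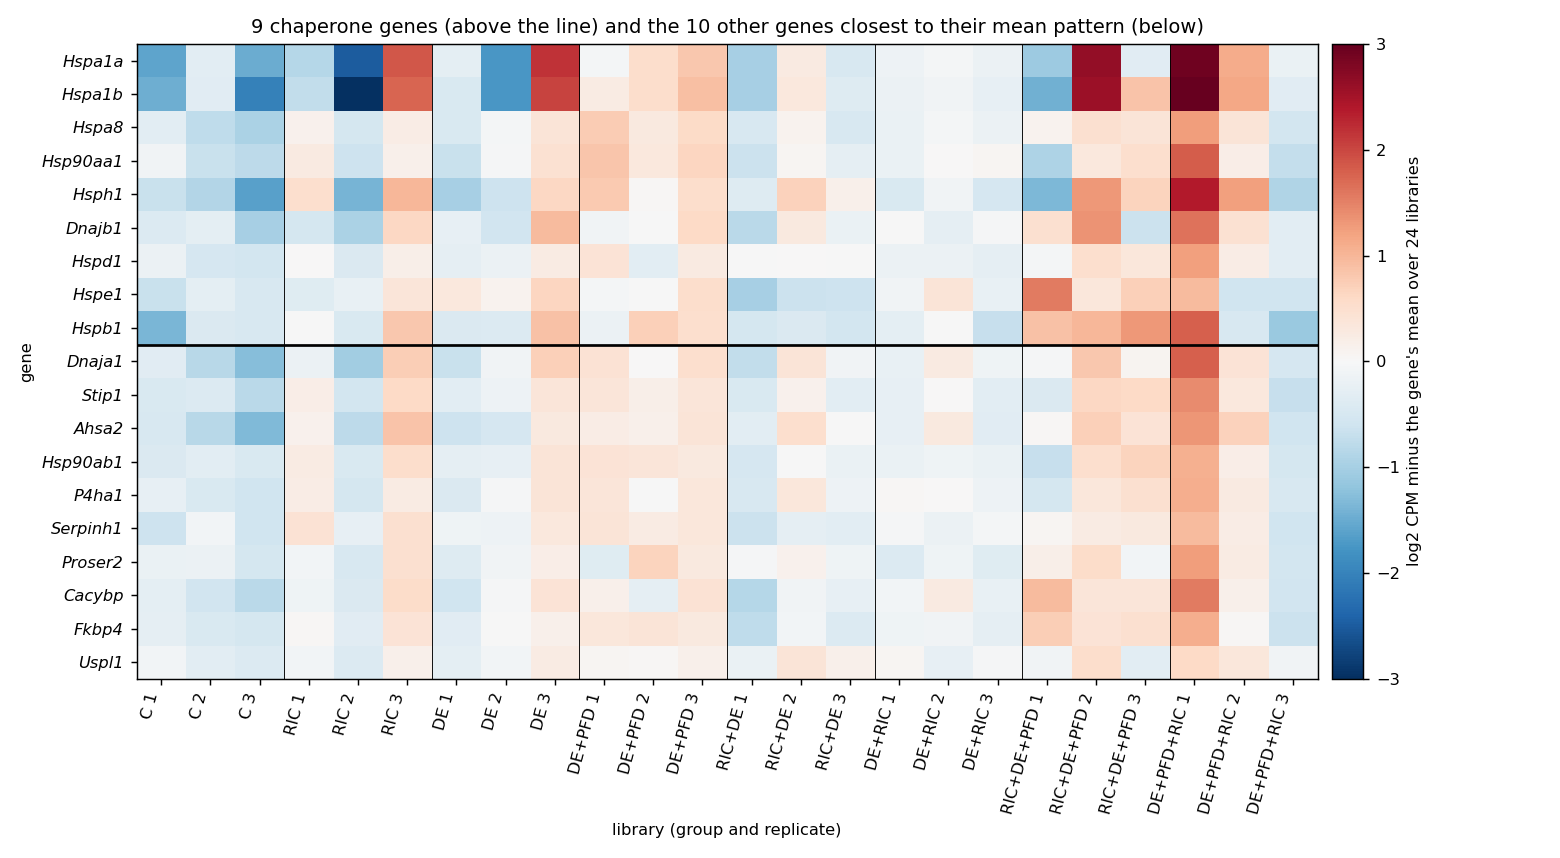
Log2 CPM minus each gene's mean over the 24 libraries, for the 9 chaperone genes (above the line) and the 10 other genes closest to their mean pattern (below); columns are libraries, thin lines part the groups, and colours saturate at 3 log2 units. The column of DE+PFD+RIC 1 is red in all rows above the line, with 2.92 for Hspa1a, and that of RIC 2 is blue in them, with -2.50.

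The mean of the 9 genes, each centred on its own mean, gave a level per library that ran from -1.13 in RIC library 2 and -1.04 in C library 3 to 0.93 in DE library 3, 1.16 in RIC+DE+PFD library 2 and 1.90 in DE+PFD+RIC library 1. Among 11779 other genes with a mean of at least 5 CPM, the 10 whose log2 CPM followed that level best were found by Pearson's r over the 24 libraries, with no test. They were Dnaja1, a J-domain protein (r = 0.945), Stip1, the adaptor between HSP70 and HSP90 (0.940), Ahsa2, related to the activator of HSP90 (0.906), and Hsp90ab1, the constitutive HSP90 (0.894). P4ha1, a subunit of the enzyme that hydroxylates collagen, was at 0.884 and Serpinh1, a chaperone of collagen in the endoplasmic reticulum, at 0.847. Proser2 (0.831), Cacybp (0.813), Fkbp4, a co-chaperone of steroid receptors (0.800), and Uspl1 (0.795) completed the 10. Of the 11779 genes, 34 had r above 0.7 and the median was 0.041. On residuals after group and date, r was 0.946 for Dnaja1, 0.945 for Ahsa2 and 0.936 for Stip1, and it was 0.919 for Bag3 and 0.916 for Chordc1. In CPM, Dnaja1 was at 114 in C library 3, 133 in RIC library 2, 446 in DE library 3, 457 in RIC library 3, 481 in RIC+DE+PFD library 2 and 954 in DE+PFD+RIC library 1.

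**Figure D4:**
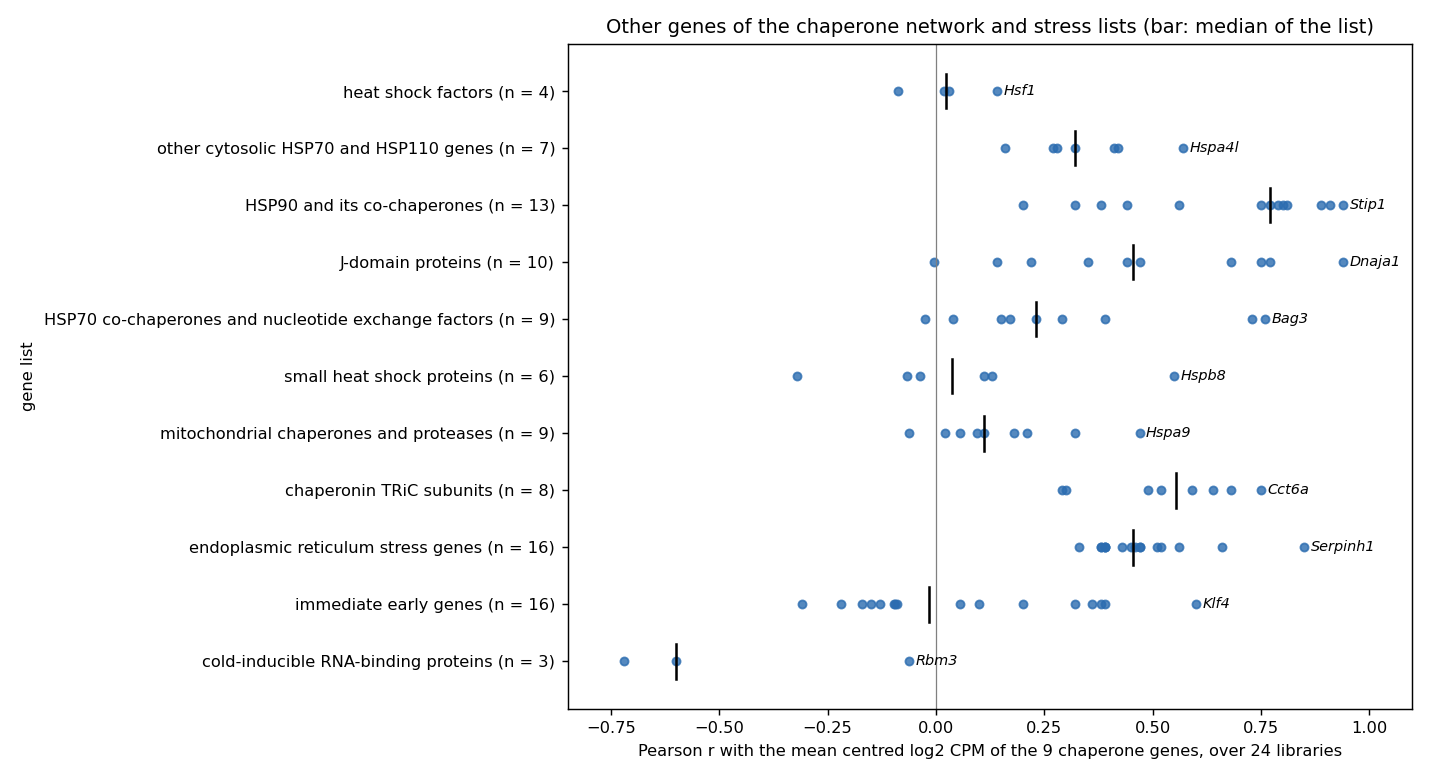
Pearson r over 24 libraries between each listed gene's log2 CPM and the mean centred level of the 9 chaperone genes, by gene list; points are genes, the bar is the list's median and the gene with the highest r is named. HSP90 and its co-chaperones have a median of 0.77, heat shock factors one of 0.024 and cold-inducible RNA-binding proteins one of -0.60.

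Lists of other genes of the system were set beside the same level. Of HSP90 and its co-chaperones, 8 of 13 had r above 0.7, with a median of 0.77, and the chaperonin TRiC, the folding ring of the cytosol, had a median of 0.55 over 8 subunits. J-domain proteins had a median of 0.45 over 10 genes and genes of stress in the endoplasmic reticulum one of 0.45 over 16. The lists of mitochondrial chaperones and proteases, at 0.11 over 9 genes, and of small heat shock proteins, at 0.039 over 6, lay near the 0.041 of all candidates. So did the heat shock factors, at 0.024 over 4 genes: the mRNA of Hsf1, the factor that drives the response, was at 38.8 to 77.3 CPM in all 24 libraries. Immediate early genes, which are switched on within minutes of many stimuli, had a median of -0.017 over 16 genes. On residuals after group and date, r in this list ran from -0.54 for Ier3 to 0.81 for Klf4. Jun was then at 0.71, beside 0.32 without that step, and Fos at -0.082, beside -0.13. The 3 cold-inducible RNA-binding proteins had a median of -0.60. Of these, Srsf5, a splicing factor, was lowest at -0.72 and Cirbp was at -0.60, whereas Rbm3 was near 0 at -0.063.

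Hspa1a was also set against 10 genes of these lists, chosen after values were seen. Dnaja1 and Hsp90ab1 were among the 10 genes closest to a level that includes Hspa1a, and Bag3 was close to it on residuals. The p-values of these relations are therefore no independent support. By r, Dnaja1 (0.840), Bag3, a nucleotide exchange factor of HSP70 (0.789), Hsp90ab1 (0.774) and Hspa5, the HSP70 of the endoplasmic reticulum (0.507), went with it, and Cirbp, a cold-inducible RNA-binding protein, went against it (-0.565); their permutation p adjusted over the 10 relations were 6.67e-05 for the first 3, 0.0228 and 0.0103 (raw 1e-05, 2e-05, 2e-05, 0.0114 and 0.00413). Spearman's rho was 0.805 for Dnaja1, 0.711 for Bag3, 0.733 for Hsp90ab1, 0.550 for Hspa5 and -0.521 for Cirbp (adjusted permutation p of 0.0003, 0.000533, 0.0004, 0.0152 and 0.0206). Hsf1 (r = 0.197), Hsf2 (-0.0283), Cryab (-0.00584), Rbm3 (-0.114) and Fos (-0.0398) had adjusted permutation p between 0.596 and 0.977. Without DE+PFD+RIC library 1 and RIC+DE+PFD library 2, r was 0.765 for Dnaja1, 0.646 for Bag3, 0.675 for Hsp90ab1, 0.453 for Hspa5 and -0.486 for Cirbp, and the last 2 were no longer past the threshold. Within March and October r was 0.934 and 0.833 for Dnaja1, 0.876 and 0.802 for Bag3, 0.853 and 0.734 for Hsp90ab1, 0.692 and 0.366 for Hspa5 and -0.671 and -0.743 for Cirbp. Cirbp was at 39.1 CPM in DE+PFD+RIC library 1, its lowest value, and at 137.2 in RIC+DE+PFD library 1, its highest.

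**Figure D5:**
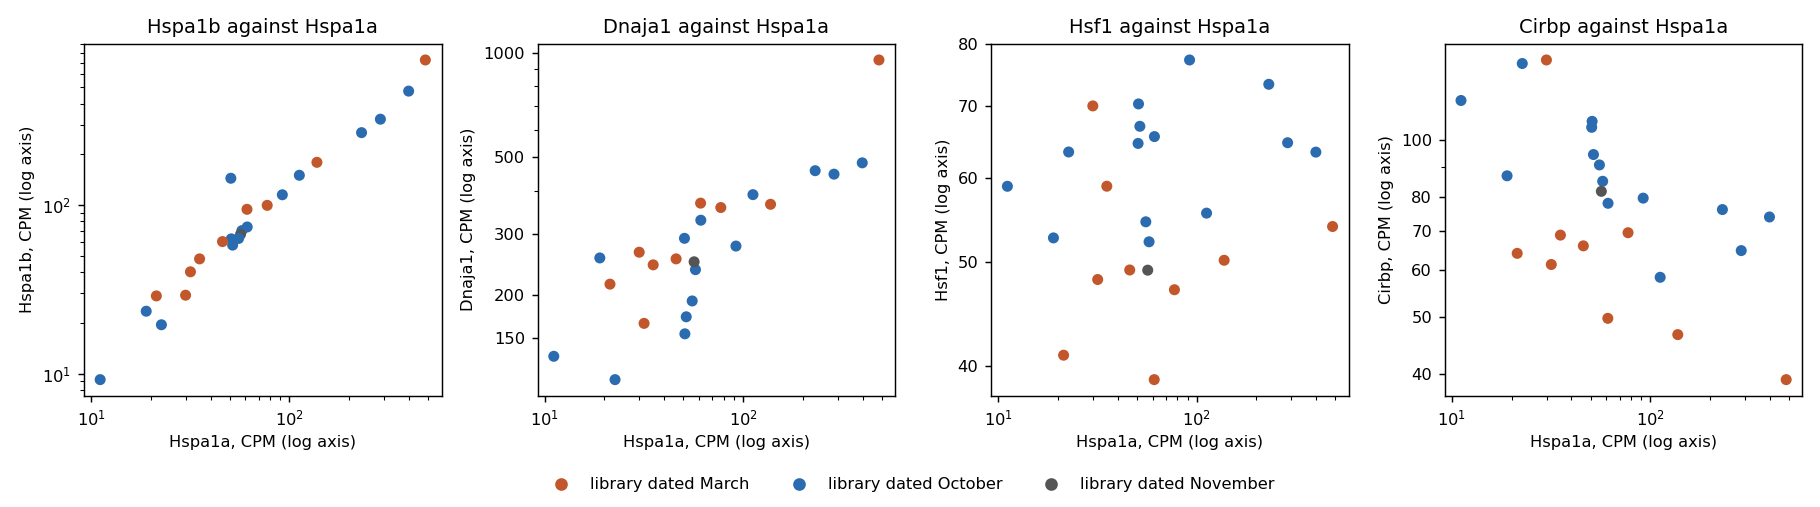
CPM of Hspa1b, Dnaja1, Hsf1 and Cirbp against that of Hspa1a (log axes), 1 point per library coloured by date. Hspa1b and Dnaja1 climb with Hspa1a (r = 0.976 and 0.840), Hsf1 shows little slope (0.197) and Cirbp declines (-0.565).

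Between groups, 0 genes of the other lists passed the threshold in any of the comparisons above (edgeR). In DE against C, where 49.9% of all genes lay above 0, 12 of 13 genes of HSP90 and its co-chaperones did, with a median of log2 0.40. They were led by Ahsa1, the activator of HSP90 ATPase, at 0.52 ± 0.28 (SE), Cacybp at 0.68 ± 0.40 and Ahsa2 at 0.72 ± 0.43. All 10 J-domain genes were above 0, with a median of 0.14 and Dnaja1 at 1.00 ± 0.52, as were all 8 TRiC subunits, with a median of 0.31, and all 16 genes of endoplasmic reticulum stress, with a median of 0.27. Dnaja1 was at 172.6, 255.4 and 446.1 CPM in DE and at 214.5, 154.1 and 113.6 in C, which overlap. How far the counts of these lists rest on single libraries was not tested. Of 18 immediate early genes 3 were above 0, with a median of -0.15 and Klf2, a factor of endothelium under flow, at -0.60 ± 0.28. In RIC against C, where 49.0% of all genes lay above 0, the HSP90 list had 11 of 13 above 0, a median of 0.45 and Ahsa2 at 1.08 ± 0.42 (unadjusted edgeR p of 0.0174, adjusted 1), and the endoplasmic reticulum list 15 of 16, a median of 0.26 and Serpinh1 at 0.65 ± 0.28. In RIC+DE against DE, where 50.3% of all genes lay above 0, the directions were mixed. There 0 of 8 TRiC genes and 1 of 16 endoplasmic reticulum genes lay above 0, with medians of -0.52 each. Of the TRiC genes 6 were lower at an unadjusted edgeR p under 0.05 (9.40% of all genes). Of 18 immediate early genes 16 lay above 0, with a median of 0.31, and 1 was higher at an unadjusted edgeR p under 0.05 (7.79% of all genes). The 9 chaperone genes had a median of -0.42 there. Heat shock factors had medians of -0.12, 0.084 and 0.20 in these 3 comparisons, over 4 genes. RIC+DE and DE share no date, so their fold changes take the date term from other groups. In March against October, 1 of 18 immediate early genes lay above 0 (53.2% of all genes), with a median of -0.50. Of the 18, 7 were lower at an unadjusted edgeR p under 0.05 (7.08% of all genes). The medians of TRiC and endoplasmic reticulum genes were 0.13 and 0.11. How far the date term set the directions above was not tested.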

How the data were processed

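Poly(A) RNA of 24 lungs was sequenced with strand-specific libraries, per the labels' protocols. The authors deposited raw whole-number counts. Per the submitters' processing notes, FastQC 0.12.1, fastp 0.23.4, STAR 2.7.11b, featureCounts and GRCm39 were used. The strand setting, annotation release and counting of multi-mapped reads were not stated in any source used. Genes with a symbol held 98.45% of counts. Counts were filtered with filterByExpr, TMM-scaled and fitted in edgeR 4.0.16 (R 4.3.3; quasi-likelihood, robust) with date and group over all 24 libraries, and p-values were adjusted by Benjamini-Hochberg over 17490 genes at a threshold of 0.05. The SE is the log2 fold change divided by the root of F. Log2 CPM used a prior count of 2. DESeq2 1.42.0, other filters, date terms and scalings, a replicate block and leaving out each library were alternatives. Correlations used 100000 permutations, two-sided (Python 3.11.15, SciPy 1.17.1, NumPy 2.4.6). The scripts were tested on simulated data. Named are all 9 members, list genes past the threshold or among the 3 smallest p of their list in DE or RIC against C, and the 10 genes of most like pattern; Hspa5, Cryab and Fos stand outside that rule, and the 10 genes tested against Hspa1a were chosen after values were seen. The members and lists were chosen with earlier results of these data known. Sequences are from RefSeq GRCm38.p6, another build than that of the counts.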

Additional observations from a re-analysis of the deposited data

How the results depend on the processing

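With no filter on low counts, edgeR called 4 of the 9 genes in DE against C, 3 in RIC against C, 1 in RIC+DE against DE, 1 in RIC+DE+PFD against DE, 3 in DE+PFD+RIC against DE, 2 in DE+PFD+RIC against DE+PFD, 1 in DE+RIC against RIC+DE, 3 in DE+PFD+RIC against RIC+DE+PFD, 8 in the test of any group, 1 between dates, and 1 (preconditioning) and 2 (perconditioning) in the differences of differences, where 0 were called with the filter; the cause was not tested. DESeq2 called 2 in the test of any group and 1, Hspe1, in the preconditioning difference, and edgeR without a date term called that 1 as well. Without RIC+DE+PFD 1 and DE 1 together, an alternative added after seeing the data, 1 gene (Hspa8) was called between dates. Leaving out each library in turn gave 0 to 1 genes in DE+PFD+RIC against RIC+DE+PFD and 0 to 1 in the preconditioning difference. In DE against C, Hspa1a and Hspa1b reversed to -0.0888 each without DE library 3, and in RIC against C, Hspa1a, Hspa1b and Dnajb1 reversed to -0.356, -0.434 and -0.25 without RIC library 3, which leaves 2 libraries in that group. Over all libraries left out in turn, the highest values were 2.16 and 2.13 for Hspa1a and Hspa1b in DE (without DE library 2 and C library 2) and 1.95, 1.97 and 0.678 for Hspa1a, Hspa1b and Dnajb1 in RIC (each without RIC library 2). Of 784 recomputed fold changes, 762 kept direction and side of the threshold, 17 were newly called and 5 reversed. In the March libraries alone, with 9 in place of 24 libraries, 20 pairs of genes passed in place of 32; leaving out any 1 library gave at least 31. Hspa1a with 10 genes gave 3 relations past the threshold in place of 5 in March alone, without the 2 farthest libraries and without DE+PFD+RIC library 1. The replicate block called 0 of the 9 genes with and without the date term in each test fitted; same-numbered libraries did not deviate together (0 of 11 comparisons with all 3 correlations over 0.1, and 6 of 24 libraries closest to their own number), so the numbers were not taken as pairs. A fit of the compared groups alone could not be had for 2 comparisons, and October alone gives no value for comparisons with RIC+DE and was not run for the differences of differences. With 3 libraries a group, differences of Hspa1a as large as log2 1.94 (DE+PFD+RIC against DE+PFD) did not pass the threshold.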

Other observations

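The ratio of Hspa1b to Hspa1a counts was between 0.829 and 1.54 in 23 libraries, with a median of 1.24 over all 24, and 2.85 in RIC+DE+PFD library 3, from 1249 and 439 counts. In that library Dnajb1 was at 62.05 CPM and Hspb1 at 479.2. The genes that ran most against the mean level of the 9 chaperone genes, named here after their values were seen, were Rubcnl (r = -0.771), Btla, an inhibitory receptor of lymphocytes (-0.770), and Zc3h6 (-0.765), over 24 libraries and with no test.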
